A study of Sus scrofa with 14 samples.

Results

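T cell marker genes were followed in pig meniscus through 9 listed genes: CD3D, CD3E, CD3G, CD247, CD4, CD8A, CD2, CD5 and IL7R. Their probes were all non-control probes whose RefSeq accession is a transcript of one of these genes. This gave 14 probes of 8 genes among 43603 non-control probes, and CD5 had no probe matched to it and was not analysed here. Of the 14 probes, 12, again of 8 genes, passed the filter (well above background on 7 or more of the 14 arrays) and entered the test with 38818 probes in all.

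The RNA came from knee menisci, pads of fibrocartilage, of adult male Wuzhishan pigs. Their age is given as 6 to 7 months, and whether this was at surgery or when tissue was taken is not stated here. The osteoarthritis (OA) group comprised 7 animals whose anterior cruciate ligament had been operated on 24 weeks before tissue was taken. In the sham group, also 7 animals, it was taken 24 weeks after a sham operation. Each animal was read on 1 single-colour Agilent array, and neither the exact procedure on the ligament nor the zone of the meniscus sampled is given in the sources used here.

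T cells recognise peptides held by MHC molecules with the T cell receptor, which has no signalling tail of its own. It signals through the CD3 gamma, delta and epsilon chains and the zeta chain CD247, while the co-receptors CD4 and CD8 bind class II and class I MHC molecules and bring the kinase LCK to the complex. CD2 is an adhesion and costimulatory receptor, CD5 tunes signalling down, and the interleukin-7 receptor keeps resting T cells alive. In pigs, CD8 alpha is also carried by natural killer cells, and a subset of gamma delta T cells lacks CD2. The cells of the meniscus are mostly fibrochondrocytes, and blood vessels enter its outer zone only.

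Some of the tissue's own genes were bright by their brightest probes: DCN, decorin, had a mean signal of 90681, ACAN, aggrecan, 71715 and SPARC, a matrix glycoprotein, 58726 (geometric mean over 14 arrays, arbitrary units). Other probes of these genes read lower, down to 7028 for DCN, 563 for ACAN and 1283 for SPARC, and SOX9 read 430. The OA arrays were dimmer than the sham arrays, with a 75th percentile of the signal of 274 ± 125 in OA and 539 ± 82.6 in sham (SD, n = 7 each; two-sided exact permutation p = 0.0035, adjusted p = 0.0035 over 2 measures). Probes well above background made up 78.1% ± 8.9 of all probes in OA and 91.2% ± 1.8 in sham (SD, n = 7 each; two-sided exact permutation p = 0.00058, adjusted p = 0.0012). Arrays that share a scan time in the file headers are called a slide here, and no slide held both groups: sham 1 to sham 4 lay on slide 1 and sham 5 to sham 7 on slide 2, while OA 1 lay on slide 3, OA 2 to OA 5 on slide 4 and OA 6 and OA 7 on slide 5. No scan day held both groups either: the sham arrays were scanned on day 1, OA 1 on day 2 and OA 2 to OA 7 on day 3. Group therefore cannot be told apart from slide or scan day. Levels below are given as a percent of the 75th percentile of the signal on the same array, and levels of different probes are not compared.

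Detection of the T cell probes differed between the groups in the same direction as the brightness of the arrays. Of the 14 probes, 7 to 13 were well above background on an OA array (median 11) and 12 to 14 on a sham array (median 13). The lowest counts, 7 of 14, came from OA 3 and OA 4, whose 75th percentiles of 190 and 156 were also the lowest. Each of the 12 tested probes was detected in this sense on all 7 sham arrays, and 5 of them on all 7 OA arrays: those of CD3E and CD8A, 1 of the probes of CD247 and 1 of the probes of CD4. These 5 were thus detected on all 14 arrays, as were 27747 of the 38818 tested probes of the whole array. A probe could pass the filter on the 7 sham arrays alone, so detection of tested probes in sham is partly set by the filter. The part of array brightness in the counts of detected probes was not tested.

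**Figure D1:**
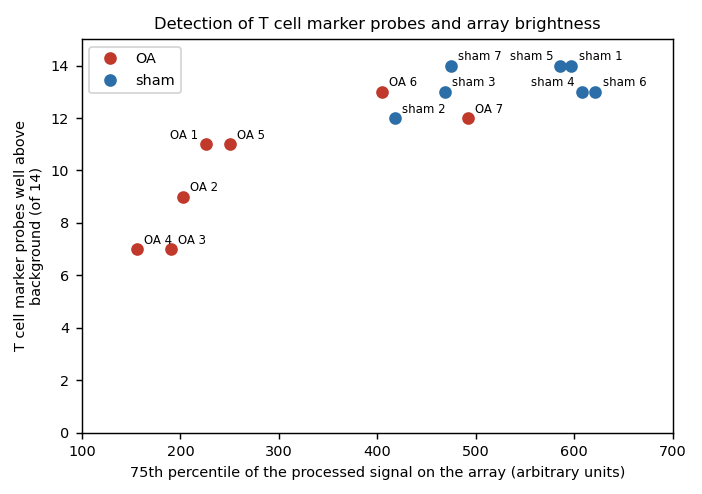
Number of the 14 T cell marker probes that were well above background on each array (vertical axis) against the 75th percentile of the processed signal of that array (horizontal axis, arbitrary units); each point is 1 array, 7 OA and 7 sham. OA 1 to OA 5 lie at 156 to 250 units with 7 to 11 probes, whereas OA 6 and OA 7, at 404 and 492 units, have 13 and 12 probes and lie beside the sham arrays.

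None of the 12 tested T cell probes passed the test of OA against sham in the fit over all probes: 0 were called higher and 0 lower (limma adjusted p from 0.16 to 0.97), against 3.73% of all tested probes called (2.89% higher). The change was positive for 5 probes and negative for 7, from -0.39 to 0.56 on the log2 scale, with a median of -0.08, and the median over all tested probes was -0.05. At an unadjusted p under 0.05 there was 1 of 12, in IL7R, against 19.6% of all tested probes. The OA and sham levels overlapped for all 12, while the groups did not overlap for 1.73% of all tested probes. The probes were dim, with mean signals of 8.19 to 190, and 10 of them lay below the median of 86.6 for all tested probes. In bulk tissue, a difference in the number of T cells and a difference in RNA per cell cannot be told apart.

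**Figure D2:**
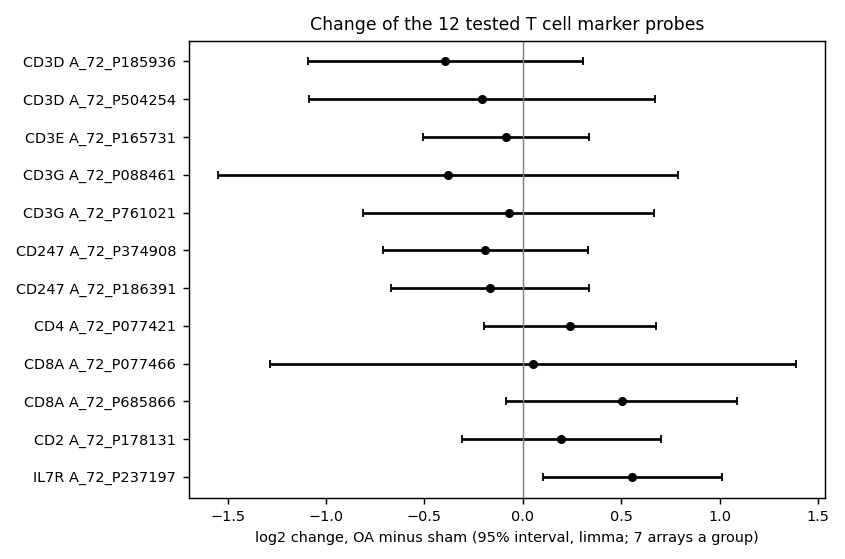
Log2 change, OA minus sham, of each tested T cell probe (horizontal axis), with its 95% interval from the limma fit on 7 OA and 7 sham arrays. The intervals of 11 probes cross 0, that of IL7R runs from 0.10 to 1.01, and the widest belongs to CD8A probe A_72_P077466.

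The changes can be read against those of probes of like brightness. With all tested probes cut into 10 equal classes by signal, the median change was -0.36 in class 1, the dimmest, which holds 1 of the T cell probes, and -0.21 in class 2, which holds 4. In classes 3 and 4, with 2 of them each, the median change was -0.12 and -0.06. In classes 5, 6 and 7, with 1 each, it was -0.05, -0.03 and -0.02. It was 0.09 in class 10, the brightest, which holds none of them.

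The count changed under 1 alternative. With normexp background correction, which adds an offset of 50 to every spot, 9 of the 12 probes were called higher in OA and 0 lower, but so were 45.4% of all tested probes (17635), and the median over all probes was 0.34. Set against the median of all probes in the same class of 10 by brightness, the T cell probes then stood at -0.17 to 0.27 on the log2 scale.

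Of the CD3 chains, CD3E, the epsilon chain that pairs with either of the other CD3 chains, was read by 1 probe well above background on all 14 arrays. Its level was 6.48%, 9.20% and 13.2% in OA (lowest, median and highest) and 7.63%, 11.3% and 12.6% in sham. The groups overlapped almost fully, and both the lowest and the highest reading came from OA. Within sham the slides did not overlap, with 11.3% to 12.6% on slide 1 and 7.63% to 8.80% on slide 2. The change was -0.09 ± 0.20 (SE, n = 7 each; 95% interval -0.51 to 0.34; limma adjusted p = 0.85), so this interval leaves room for a fall of 0.51 or an increase of 0.34 on the log2 scale.

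CD3D, the delta chain, had 2 dim probes. By the brighter probe, A_72_P185936, its level was 0.891%, 3.37% and 4.55% in OA and 2.43%, 3.31% and 7.65% in sham (lowest, median and highest). The medians lay close together, with OA 3 alone at the low end and sham 1 alone at the high end. The reading of OA 3 sat at the lowest signal listed on that array, a value shared by 5640 spots or 12.9% of it, so it has no order among them. The change was -0.39 ± 0.33 (SE; 95% interval -1.09 to 0.31; limma adjusted p = 0.55), and with 1 array left out it ran from -0.51 (without OA 1) to -0.12 (without OA 3). The other probe, A_72_P504254, was well above background on 2 OA and all 7 sham arrays. It gave 0.662%, 2.27% and 4.46% in OA and 1.38%, 1.70% and 8.04% in sham, again with sham 1 the highest, and a change of -0.21 ± 0.42 (limma adjusted p = 0.82).

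CD3G, the gamma chain, varied widely between arrays of both groups. By probe A_72_P088461 its level was 1.87%, 9.56% and 27.5% in OA and 7.02%, 8.22% and 42.3% in sham. OA 2 and OA 4, at 24.1% and 27.5%, and sham 1 and sham 6, at 42.3% and 23.1%, stood above the other 10 arrays. The change was -0.38 ± 0.55 (SE; 95% interval -1.55 to 0.79; limma adjusted p = 0.75). With 1 array left out it ran from -0.65 (without OA 4) to -0.0030 (without OA 3), and it was -0.073 without sham 1, -0.22 without sham 6 and -0.62 without OA 2. The second probe, A_72_P761021, was only weakly correlated with the first across arrays (r = 0.11, rho = 0.24, n = 14; permutation p = 0.70 and 0.41, adjusted over 66 pairs 0.83 and 0.68). Its highest readings were OA 7 at 11.7% and sham 4 at 9.75%, and its change was -0.07 ± 0.35 (limma adjusted p = 0.93).

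CD247, the zeta chain and the main signalling tail of the complex, had 2 tested probes. Probe A_72_P374908 read 19.0%, 26.8% and 62.0% in OA and 26.8%, 32.6% and 51.3% in sham. OA 2 and sham 1 were the highest arrays of their groups, and OA 3 and OA 4 the lowest of all 14. The change was -0.19 ± 0.25 (SE; 95% interval -0.71 to 0.33; limma adjusted p = 0.71), and with 1 array left out it ran from -0.37 (without OA 2) to -0.086 (without sham 1). The second probe, A_72_P186391, gave 3.69%, 5.77% and 12.4% in OA and 5.36%, 5.89% and 10.9% in sham. OA 2 and sham 1 were again the highest, and the other 12 arrays lay between 3.69% and 7.27%, with a change of -0.17 ± 0.24 (limma adjusted p = 0.74) that ran from -0.35 (without OA 2) to -0.049 (without sham 1) with 1 array left out. The probes of CD247 correlated with r = 0.69 and rho = 0.48 over 14 arrays (permutation p = 0.0077 and 0.084, adjusted p = 0.057 and 0.31), and r fell to 0.03 without sham 1 and OA 2.

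**Figure D3:**
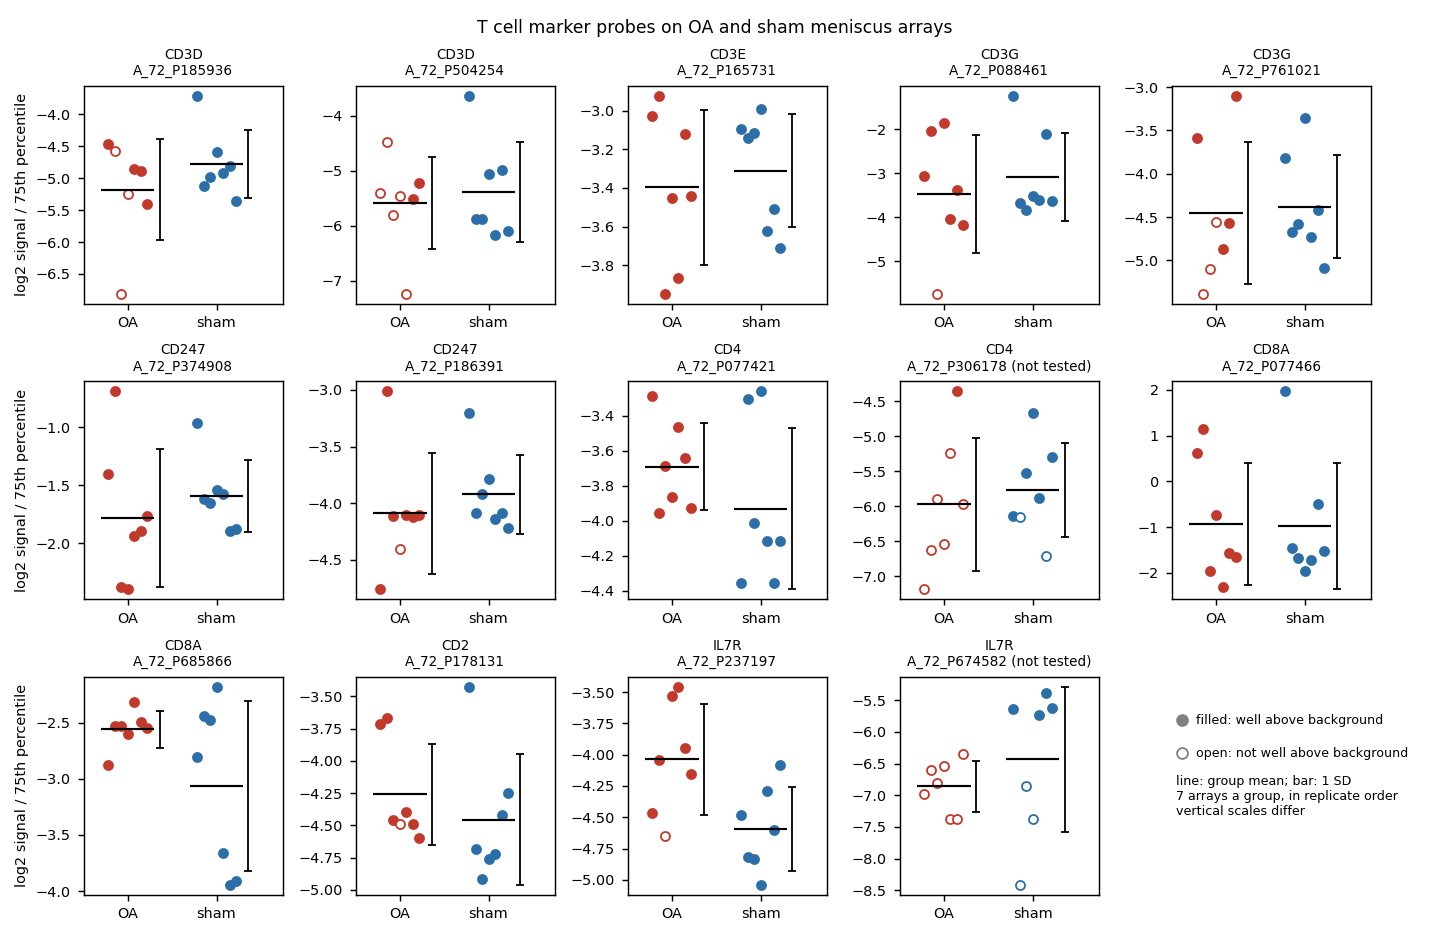
Level of each of the 14 T cell probes on every array, as log2 of the signal over the 75th percentile of that array (vertical axes, which differ between panels); filled points are well above background, open points are not, lines are group means and bars 1 SD (7 OA arrays left, 7 sham arrays right). The groups overlap in each panel, and single arrays, such as sham 1 for CD8A probe A_72_P077466 at 1.97, stand far above the rest of their group.

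CD4, the co-receptor of helper and regulatory T cells, was well above background on all 14 arrays by probe A_72_P077421. Its level was 6.43%, 7.74% and 10.2% in OA and 4.88%, 5.78% and 10.4% in sham. The OA readings were closely spaced, and sham 2 and sham 4, at 10.1% and 10.4%, stood among the highest OA readings while the other 5 sham arrays lay at 4.88% to 6.19%. The change was 0.24 ± 0.21 (SE; 95% interval -0.20 to 0.68; limma adjusted p = 0.56). The second probe, A_72_P306178, was well above background on 1 OA and 5 sham arrays and was not tested. It read 0.685%, 1.60% and 4.88% in OA and 0.952%, 1.69% and 3.94% in sham, and its OA 4 reading was the lowest signal listed on that array.

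CD8A, the alpha chain of the co-receptor of cytotoxic T cells, varied widely between animals of both groups. Probe A_72_P077466 read 20.1%, 33.8% and 220% in OA and 25.8%, 34.8% and 393% in sham. Sham 1 was highest at 393%, OA 2 followed at 220% and OA 1 at 154%, and the other 11 arrays lay between 20.1% and 71.3%. The groups' medians were nearly equal and the change was 0.05 ± 0.63 (SE, n = 7 each; 95% interval -1.28 to 1.39; limma adjusted p = 0.97). With each array left out in turn it ran from -0.29 to 0.54.

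The second CD8A probe, A_72_P685866, gave another picture. It read 13.6%, 17.3% and 20.0% in OA and 6.49%, 14.3% and 22.1% in sham, with a change of 0.50 ± 0.28 (SE; 95% interval -0.08 to 1.09; limma adjusted p = 0.33). Its low readings were all on slide 2, where sham 5 to sham 7 gave 6.49% to 7.88%, while the sham arrays of slide 1 gave 14.3% to 22.1% and overlapped the OA range. The probes of CD8A showed no positive correlation over the 14 arrays (r = -0.11, rho = -0.47; permutation p = 0.74 and 0.090, adjusted p = 0.84 and 0.31). Which of them reads CD8A transcripts more faithfully was not tested.

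CD2, which binds CD58 on partner cells, read 4.12%, 4.54% and 7.85% in OA and 3.31%, 3.89% and 9.30% in sham by its 1 probe. All 7 OA arrays lay above the sham median, but only 3 of 7 above the sham mean of the log2 levels. The share of all tested probes with such counts was not worked out. Sham 1 was the highest array, followed by OA 2 and OA 1 at 7.85% and 7.63%. The other 11 arrays lay between 3.31% and 5.25%. The change was 0.20 ± 0.24 (SE; 95% interval -0.31 to 0.70; limma adjusted p = 0.69), and with 1 array left out it ran from 0.098 (without OA 2) to 0.37 (without sham 1).

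IL7R, the alpha chain of the interleukin-7 receptor, came nearest to the threshold. By probe A_72_P237197 it read 3.98%, 6.07% and 9.11% in OA and 3.04%, 4.12% and 5.91% in sham. OA 2, OA 4, OA 5 and OA 6 lay above every sham array, OA 1, OA 3 and OA 7 fell among the sham readings, and 6 of 7 OA arrays were above the sham mean. The change was 0.56 ± 0.21 (SE; 95% interval 0.10 to 1.01), 1.47-fold, with an unadjusted p of 0.020 and a limma adjusted p of 0.16, which did not pass. Within sham the slides differed too, with mean log2 levels of -4.79 on slide 1 and -4.32 on slide 2, beside -4.47, -3.92 and -4.05 on the OA slides 3, 4 and 5. The signal was dim, at 18.5, and 6 of 7 OA arrays were well above background. The second probe, A_72_P674582, was well above background on 0 of 7 OA and 4 of 7 sham arrays and was not tested. It read 0.602%, 0.891% and 1.23% in OA and 0.293%, 1.88% and 2.39% in sham, so no fold is given for it. Its medians stood in the opposite order to those of the first probe. The readings of sham 2, at 0.293%, of OA 3, at 0.891%, and of OA 4 were the lowest signals listed on those arrays.

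The partner of IL7R in the receptor, the common gamma chain IL2RG, was called. IL2RG read 4.63%, 6.19% and 7.74% in OA and 1.56%, 3.36% and 4.42% in sham, and the groups did not overlap. It rose by 1.09 ± 0.25 on the log2 scale (SE, n = 7 each; limma adjusted p = 0.023). The increase was shared by 7 of 7 OA arrays, and the signal was dim, at 15.3. Its other tested probe, A_72_P572539, gave -0.90 but was well above background on 1 OA and all 7 sham arrays, at a signal of 6.35. With the slide as a random block the limma adjusted p of the called probe was 0.16. The ligand IL7, a gene chosen after its values were seen, read 6.61%, 15.7% and 29.1% in OA and 7.05%, 12.8% and 27.4% in sham, which overlap nearly fully.

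High readings of the T cell probes came from few arrays. Of the 12 tested probes, 5 were highest on sham 1 and 3 on OA 2, whereas 3.54% of all tested probes were highest on sham 1 and 7.18% on OA 2. Sham 1 was among the 2 highest arrays for 7 of the 12 probes, and OA 2 for 6. These 12 probes belong to 8 genes, and the count includes both probes of CD247 and of CD3D.

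**Figure D4:**
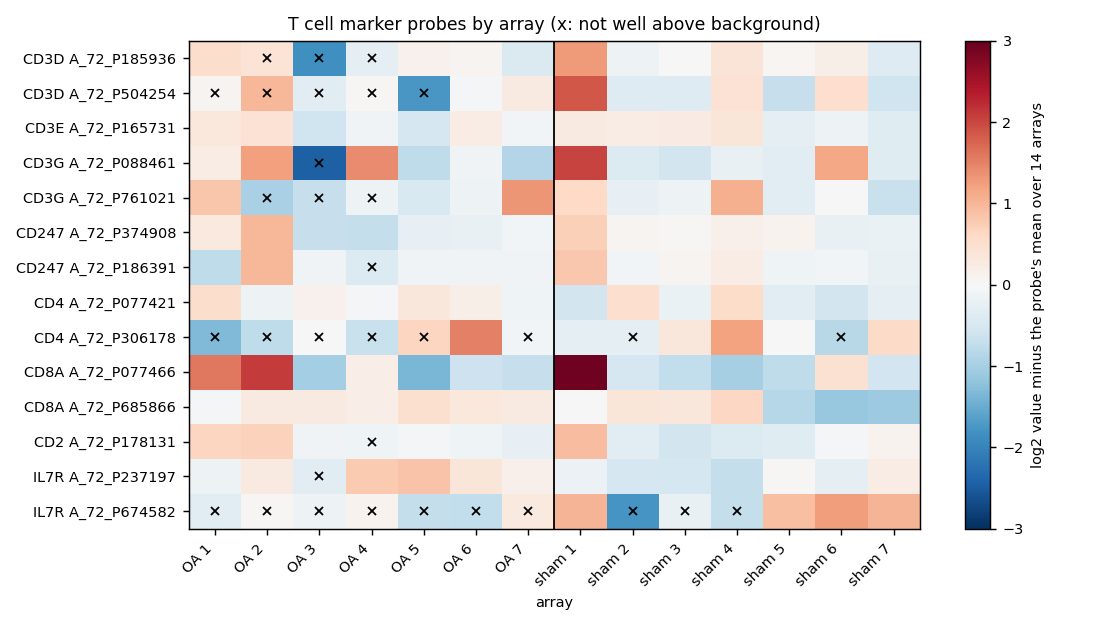
Level of each T cell probe on each array (7 OA left of the line, 7 sham right of it) as log2 minus the mean of that probe over the 14 arrays; a cross marks a reading not well above background. OA 2 and sham 1 are above the mean for most CD3D, CD3G, CD247, CD8A and CD2 probes, and the crosses gather on OA 1 to OA 5.

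Over the 66 pairs of tested T cell probes the correlation across the 14 arrays was positive for 45, with a median r of 0.24 and a range from -0.42 to 0.89. After adjustment over the 66 pairs, 7 passed by r and 0 by rho. The share over pairs of all tested probes was not worked out, so these counts are not read as a trait of T cell probes. The permutations shuffled all 14 arrays without regard to group or slide, so the p-values also take in shifts shared by a group or a slide. The closest pair was CD8A probe A_72_P077466 with CD2 (r = 0.89, rho = 0.58, n = 14; permutation p = 0.0005 and 0.032, adjusted p = 0.013 and 0.21). Without OA 2 and sham 1 its r was 0.70, and within the groups r was 0.90 in OA and 0.92 in sham. The same CD8A probe followed CD3G probe A_72_P088461 (r = 0.78, rho = 0.79, adjusted p = 0.013 and 0.056), and r was 0.74 without OA 3 and sham 1. CD3E and CD247 probe A_72_P374908 gave r = 0.69 and rho = 0.78 (adjusted p = 0.044 and 0.056), and r was 0.60 without OA 5 and OA 3. The pair of CD3D and CD3G, read by A_72_P185936 and A_72_P088461, gave r = 0.77 (adjusted p = 0.035) but 0.29 without sham 1 and OA 3, so it rests on those arrays. Slides hold at most 4 arrays, too few to give a correlation within each.

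For each gene, by its brightest probe, the genes with the most similar pattern were sought among 2249 other named genes; the highest values of so many are a description and carry no p. CD8A was most like GZMH, a granzyme of cytotoxic lymphocytes (r = 0.97, rho = 0.87, n = 14), and IL12RB1, a chain of the interleukin-12 receptor (r = 0.95, rho = 0.86). Without OA 2 and sham 1 these were r = 0.92 and r = 0.88. GZMH read 14.4%, 17.4% and 62.0% in OA and 12.9%, 18.9% and 95.5% in sham, with OA 2 and sham 1 the highest of their groups, as for CD8A. The median r of CD8A with all 2249 genes was 0.03, and 8 of them were above 0.9.

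**Figure D5:**
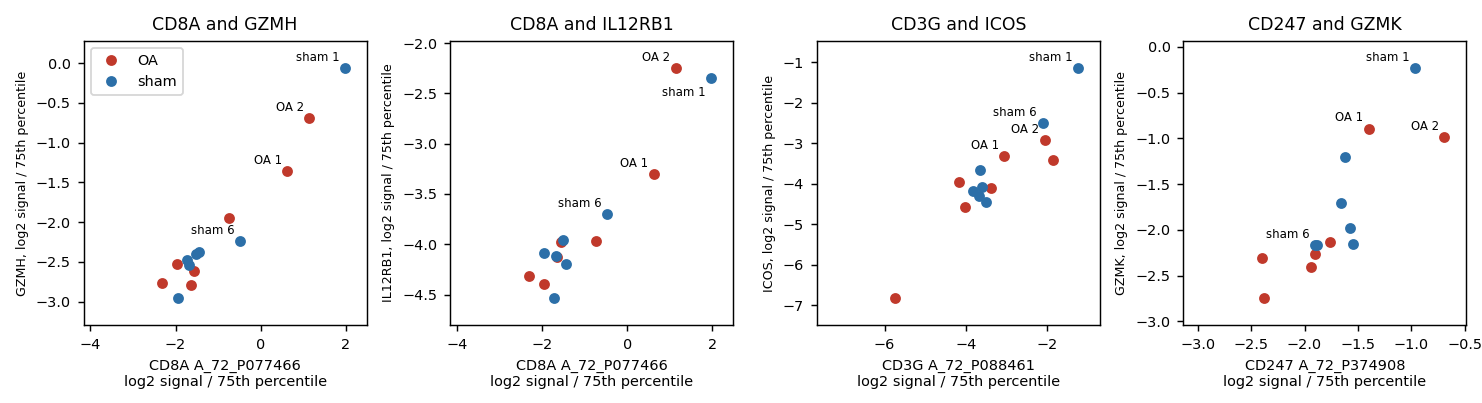
Levels of CD8A, CD3G and CD247 probes (horizontal axes) against genes with a similar pattern (vertical axes), both as log2 of the signal over the 75th percentile of the array; each point is 1 of 7 OA and 7 sham arrays. Sham 1 lies in the upper right part of each panel, with OA 2 next to it for CD8A, and OA 3 alone at the lower left for CD3G and ICOS.

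CD2 was most like IRF1, a transcription factor of the interferon response (r = 0.91, rho = 0.71), and GBP1, an interferon-induced guanylate-binding protein (r = 0.91, rho = 0.71). CD247 was most like UBD, a ubiquitin-like modifier (r = 0.87, rho = 0.67), and GZMK, another granzyme (r = 0.84, rho = 0.90). CD3G was most like ICOS, a costimulatory receptor of activated T cells (r = 0.93, rho = 0.79, and r = 0.82 without OA 3 and sham 1), and CDC42, a small GTPase (r = 0.84, rho = 0.71). CD3D was most like SLA-DRB1, a class II MHC chain (r = 0.86, rho = 0.81), and ICOS (r = 0.84, rho = 0.47). For CD3D and ICOS r was 0.20 without sham 1 and OA 3, and on OA 3 both sat at the lowest signal listed.

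CD3E, CD4 and IL7R had other neighbours. CD3E was most like IFNB1, interferon beta (r = 0.83, rho = 0.80), which sat at the lowest listed signal on OA 3 and OA 4, and SPAI-2 (r = 0.83, rho = 0.79). CD4 was most like NTRK3, a neurotrophin receptor (r = 0.90, rho = 0.90), and SLC26A5, the motor protein prestin of hair cells (r = 0.90, rho = 0.92). IL7R was most like ADRA1A, an adrenergic receptor (r = 0.81, rho = 0.81), and MYOZ2, a muscle sarcomere protein (r = 0.78, rho = 0.72).

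Other genes of the T cell pathway were read by 1 probe each, the brightest. Against a background of 3.23% of 2258 named genes called (2.97% higher and 0.266% lower), the receptor signalling and costimulation list had 0 of 10 tested genes called, with a median change of -0.17. NFATC2, a transcription factor activated by calcium, had the smallest p in it by the brightest probes, at -0.59 ± 0.31 (SE; limma adjusted p = 0.31). NFATC1, chosen after its values were seen, had 2 probes of nearly the same signal, 113 and 111, with opposite signs. The brighter gave -0.43 ± 0.41 (SE; limma adjusted p = 0.59) and the other 0.82 ± 0.24 (SE; limma adjusted p = 0.065). LCK, the kinase brought to the receptor by CD4 and CD8, was chosen after its values were seen. It read 39.0%, 43.4% and 55.5% in OA and 37.1%, 44.4% and 54.8% in sham, nearly the same range, and its other tested probe, A_72_P290209, gave 0.51 ± 0.26 (SE; log2, limma adjusted p = 0.30).

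Of 15 tested genes of T cell cytokines and their receptors 1 was higher, IL2RG, and 0 were lower, with a list median of 0.09. Of 7 transcription factors 2 were higher and 0 lower, with a median of -0.10. LEF1, which acts in T cell development and in Wnt signalling, rose by 0.96 ± 0.18 (SE; log2, limma adjusted p = 0.0098). It read 53.4%, 79.9% and 108% in OA and 28.2%, 41.0% and 51.1% in sham, and its other 2 probes gave 0.02 and -1.26, the last of them well above background on 3 OA and all 7 sham arrays. STAT6, the signal transducer of interleukin-4, rose by 0.73 ± 0.17 (SE; log2, limma adjusted p = 0.023). It read 26.7%, 28.6% and 33.2% in OA and 12.9%, 18.2% and 25.2% in sham, and its other probe gave -0.38. Neither LEF1 nor STAT6 is restricted to T cells, and with the slide as a random block their limma adjusted p was 0.12 and 0.16.

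FOXP3, the transcription factor of regulatory T cells, was chosen after its values were seen. It read 2.15%, 5.09% and 8.84% in OA and 5.33%, 7.96% and 9.01% in sham. Its change was -0.71 ± 0.27 (SE; 95% interval -1.28 to -0.13; limma adjusted p = 0.16), which did not pass, and its other 2 probes, each well above background on 3 OA arrays, gave -0.77 and -0.31. It was well above background on 5 OA and all 7 sham arrays.

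Of 16 genes of T cell trafficking 0 were called, with a median of -0.02. CCL21, a chemokine that draws T cells into lymphoid tissue, had the smallest p. It read 5.62%, 14.5% and 17.6% in OA and 9.82%, 19.5% and 34.9% in sham, with a change of -0.81 ± 0.30 (SE; limma adjusted p = 0.14) and all 7 OA arrays below the sham mean. Of 10 cytotoxic and NK cell genes 0 were called, with a median of -0.15. FASLG, the ligand of the death receptor FAS, had the smallest p, at -0.40 ± 0.25 (SE; limma adjusted p = 0.39), and was well above background on 4 OA and all 7 sham arrays.

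The arrays with high CD8A and CD2 were also high in several of these genes, here chosen after their values were seen. CCL5, a chemokine made by T and NK cells, read 290% on OA 2, 211% on OA 1 and 398% on sham 1, against medians of 56.7% in OA and 79.3% in sham. CXCL9, a chemokine induced by interferon gamma that attracts T cells, read 4504% on OA 2 and 5892% on sham 1, against medians of 302% in OA and 334% in sham. GZMA, a granzyme, read 112% on OA 2 and 240% on sham 1, against medians of 41.1% in OA and 26.0% in sham. Sham 1 was the highest array for 5 of 10 cytotoxic and NK cell genes and 7 of 16 trafficking genes, against 3.99% of all named genes. It was the highest for 0 of 7 transcription factors.

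Markers of other leukocytes were read beside them. Of 4 tested B cell genes 0 were called, with a median change of 0.37, and 2 were highest on OA 2 and 0 on sham 1. Of 7 macrophage and myeloid genes 0 were called, with 5 changes positive and a median of 0.27, and 3 were highest on OA 2 and 0 on sham 1. Of the 8 T cell genes, by their brightest probes, 2 were highest on OA 2 and 4 on sham 1, beside 11.6% and 3.99% of all named genes. CD14, a receptor for bacterial lipopolysaccharide, had the smallest p of the macrophage list by the brightest probes. It stood on the other side of 0 from the list median, at -0.45 ± 0.24 (SE; limma adjusted p = 0.33). The other tested CD14 probe, A_72_P756625, gave a larger fall of -1.12 ± 0.35 (SE; limma adjusted p = 0.084), which did not pass. That probe was dimmer, at a signal of 42.5, and well above background on 6 OA and all 7 sham arrays. ITGB2, the leukocyte integrin beta chain and the 1 tested pan-leukocyte gene, read 238%, 340% and 928% in OA and 129%, 278% and 634% in sham, with OA 2 and sham 1 the highest. Its change was 0.35 ± 0.35 (SE; limma adjusted p = 0.62). Of 6 meniscus genes 0 were called and 0 were highest on sham 1.

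Summed up over each list, the geometric mean level of the 8 T cell genes ranged over arrays from 5.42% to 16.5% in OA (median 9.69%) and from 8.08% to 18.8% in sham (median 8.97%). Over the 10 cytotoxic and NK cell genes it ranged from 25.6% to 71.4% in OA (median 38.3%) and from 31.0% to 87.8% in sham (median 39.6%). For 4 B cell genes the medians were 28.8% in OA and 24.9% in sham, and for 7 macrophage and myeloid genes 182% in OA and 131% in sham. In each list the ranges of the groups overlapped. Whether the number of T cells in the tissue, or the amount of adjoining tissue in a sample, moved with these readings was not tested.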

How the data were processed

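Meniscus RNA of 7 OA and 7 sham pigs was measured on 14 single-colour Agilent arrays. The deposited intensity values were made with Agilent Feature Extraction, which subtracted background and removed spatial trends, per the file headers, without normalization between arrays. The authors' deposited table of log2 values, made by steps not given in the sources used here, had a median of 6.00 on each array and followed the scanner signal (Spearman rho 0.994 to 1.00 across probes); it served as an alternative.

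Each log2 signal was taken relative to the 75th percentile of non-control probes on its array, with 82 spots marked as outliers set missing. No spot was saturated. A probe was tested where 7 or more of the 14 arrays read it well above background. The fit used limma 3.58.1 (R 4.3.3; lmFit, then eBayes), and two-sided p-values were adjusted by Benjamini-Hochberg across 38818 probes, with a threshold of 0.05. The scripts were tested on simulated data. The number of arrays limits the precision, and each array was taken as a separate animal, as the labels give 14 pigs. Slides are arrays that share a scan time.

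Probes were named by matching the RefSeq accession to RefSeq genes: 5779 probes carried one, 5461 matched, and 2389 genes had a probe. The planned normexp alternative used the median spot signal and an offset of 50. The T cell genes and the lists were chosen with earlier results of these data known. Named genes were every T cell probe, the called members of each list or otherwise the smallest p, and the 2 genes most similar to each T cell gene by Pearson r; other genes are marked as chosen after their values were seen, and 1 gene that the rule named is not reported here. Permutation tests of correlations drew 100000 permutations, and array measures used all 3432 assignments. Sequences and coordinates are not given. Alternatives are listed in the closing section.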

Additional observations from a re-analysis of the deposited data

Results flagged for a closer look

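A single array stood apart from the others of its group, by the gap to its nearest neighbour over the range of the group (Dixon's test at 95%), in 7 of 50 checks, and chance gives such a gap in about 1 in 20 groups. Levels are printed as percents of the 75th percentile of the array, but their gaps and ranges were taken on the log2 scale. For the share of probes well above background they were taken in percent. On sham 1, CD8A probe A_72_P077466 read 393%, where the other sham arrays read 25.8% to 71.3%. On the same array, CD247 probe A_72_P374908 read 51.3%, beside 26.8% to 34.3% on the others, and CD247 probe A_72_P186391 read 10.9%, beside 5.36% to 7.27%. On OA 2, that last probe read 12.4%, where the other OA arrays read 3.69% to 5.83%. CD3D probe A_72_P185936 read 0.891% on OA 3, the lowest signal listed there, beside 2.36% to 4.55% on the other OA arrays. CD14 read 373% on sham 4, beside 115% to 174% on the other sham arrays. On sham 4, 95.2% of all probes were well above background, and 89.7% to 91.1% on the other sham arrays.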

How the results depend on the processing

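The count of T cell probes called was 0 of 12 under 11 of 12 alternatives (5 of the probes were tested with the filter on all 14 arrays) and when any 1 array was left out; it was 9, all higher in OA, with normexp background correction, where the median change of all probes was 0.34. That correction turned CD3D to 0.69 and 0.74 (A_72_P185936 and A_72_P504254), CD3E to 0.49, CD3G to 0.32 and 0.69 (A_72_P088461 and A_72_P761021), CD247 to 0.11 and 0.58 (A_72_P374908 and A_72_P186391), NFATC2 to 0.44, FOXP3 to 0.50 and FASLG to 0.61. The cause was not tested, but the medians of probes of like brightness turned with them.

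Signs of small changes also turned elsewhere. CD3G probe A_72_P761021 stood at 0.081 with quantile normalization, 0.074 with the slide as a random block, 0.89 with array brightness as a covariate, 0.11 with array weights and 0.55 without the arrays of slides 3 and 4. CD3D probe A_72_P504254 stood at 0.022 with quantile normalization, 0.12 with brightness and 0.012 without those slides. CD8A probe A_72_P077466 stood at -0.39 with brightness, -0.068 with array weights and -0.63 without those slides. CD3E stood at 0.047 with array weights and 0.030 without those slides, where CD2 stood at -0.089, ITGB2 at -0.19 and FASLG at 0.074; FASLG stood at 0.33 with brightness. With 1 array left out, CD3D probe A_72_P504254 ran from -0.39 to 0.083, CD3E from -0.16 to 0.0065, CD3G probe A_72_P761021 from -0.30 to 0.10, and CD8A probe A_72_P077466 from -0.29 to 0.54. ITGB2 ran from 0.13 (without OA 2) to 0.54 (without sham 1), NFATC2 from -0.75 (without OA 1) to -0.39 (without OA 3), FASLG from -0.52 (without OA 1) to -0.26 (without OA 3) and CD14 from -0.52 (without sham 5) to -0.24 (without sham 4). None of these passed outside normexp.

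Over all probes, 1120 were called higher and 329 lower in OA. The counts were 1568 and 674 with quantile normalization, 1385 and 784 with median scaling, 17635 and 778 with normexp, 2076 and 475 with no filter, 1122 and 69 with the filter on all 14 arrays, and 1509 and 747 in the authors' table. They were 295 and 40 with the replicate block, 18 and 0 with the slide block (correlation 0.225), 143 and 5 with the scan day, 3 and 1 with brightness, 1344 and 580 with array weights and 156 and 39 without slides 3 and 4. With 1 array left out they ran from 598 (without sham 1) to 1307 (without OA 1) higher and from 87 (without OA 3) to 1403 (without OA 1) lower. Higher calls moved by over 1.5 times without sham 1, sham 6, OA 2 or OA 3, and lower calls without any array but sham 7 or OA 7.

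Of the list genes 3 were called, and 26 with normexp, 1 with the replicate block, 0 with the slide block, 0 with the scan day, 0 with brightness and 1 without slides 3 and 4; with 1 array left out the count ran from 1 (without sham 1) to 5 (without OA 1). IL2RG lost its call without sham 1 (limma adjusted p = 0.051), and STAT6 without sham 1 or OA 3 (limma adjusted p = 0.053 and 0.052). Same-numbered arrays had correlations of their deviations from -0.19 to 0.27, which cannot show whether the replicate numbers paired animals, and the main fit used no pairing. Dim arrays limit what these dim probes can show, as 7 of the 12 tested probes were not well above background on every OA array.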
